A study of Mus musculus with 6 samples.

Results

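Regions bound by PPARγ in 3T3-L1 adipocytes were placed relative to the acetylated chromatin of the same cells. The members were the 2610 autosomal regions of the final adipocyte PPARγ list, out of 2634 in that list; the other 24 lay on chromosome X. Each was placed against the 50496 autosomal regions of acetylated histone H3 lysine 9 (H3K9Ace) in adipocytes, called domains here, which remained of 51257 over all chromosomes after 20 repeated rows were dropped. A PPARγ region was called inside when it lay whole within a domain and touching when it overlapped a domain by at least 1 bp without lying inside. The remaining regions were sorted by the gap to the nearest domain, with limits at 1, 5 and 50 kb. The series holds 6 ChIP-seq (chromatin immunoprecipitation followed by sequencing) libraries, and this account rests on 2 of them, PPARγ and H3K9Ace in adipocytes, with the same 2 targets in macrophages for comparison. The adipocytes were cells of the 3T3-L1 preadipocyte line after a standard differentiation protocol. The macrophages were primary cells from male C57Bl6 mice, washed from the peritoneum 3 days after injection of 1 ml of 3% thioglycollate and kept 24 h in culture, with at least 4 animals pooled per sequencing run. All cells grew in high-glucose medium with 10% serum, and the labels name no added PPARγ ligand for any group. The target of each library was read from its title and antibody label, since the description field names PPARγ for all 6.

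PPARγ is a nuclear receptor that binds DNA as a partner of the retinoid X receptor and is needed for fat cell differentiation. Receptors of this family recruit co-activators that carry or attract histone acetyltransferases when a ligand is bound. H3K9Ace marks active promoters and enhancers, and wide stretches of it are usually found at highly expressed genes and clustered enhancers. In a fat cell, PPARγ sites are known to lie largely at distal enhancers.

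Each group held 1 library, so nothing here has a replicate and no test was run. The 95% intervals cover counting error alone and treat regions as independent. The depth of the libraries is unknown. Domains were 500 to 67400 bp wide with a median of 1000 bp, and every domain edge lay on a 50-bp grid. They covered 98.7 Mb, 4.02% of the autosomal span reached by the lists. PPARγ regions had a median width of 260 bp, a median fold of 6.38 over the peak caller's control (5 to 18.55) and a median peak height of 12 (9 to 46). The fold and the height are the authors' own values. The files give mm8 positions without gene names, so regions are named by position and the cell type could not be checked against marker genes.

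Most adipocyte PPARγ regions lay whole within an acetylated domain of the same cells. Inside were 1934 of 2610 regions, 74.1% (95% Wilson interval 72.4 to 75.7). Another 189 touched an edge, 7.24% (6.31 to 8.30). Just outside, with a gap of up to 1 kb, were 154 regions, 5.90% (5.06 to 6.87). The share of the list then stayed low with distance. Between 1 and 5 kb lay 98 regions, 3.75% (3.09 to 4.55). Between 5 and 50 kb lay 167, 6.398% (5.52 to 7.40), and 68 were farther than 50 kb, 2.61% (2.06 to 3.29). Inside and touching regions together made up 81.3% of the list on 4.02% of the span, 20.3 times the share of bases. The same regions met the macrophage domains much less: 401 were inside one, 15.4% (14.03 to 16.8), and 527 were farther than 50 kb from any, 20.2% (18.7 to 21.8). Macrophage domains covered 2.13% of the span. Inside or touching one were 19.1% of the regions (17.7 to 20.7), still a larger share than that of bases. Of these 499 regions, however, 473 were also inside or touching an adipocyte domain, 94.8% (92.5 to 96.4).

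**Figure D1:**
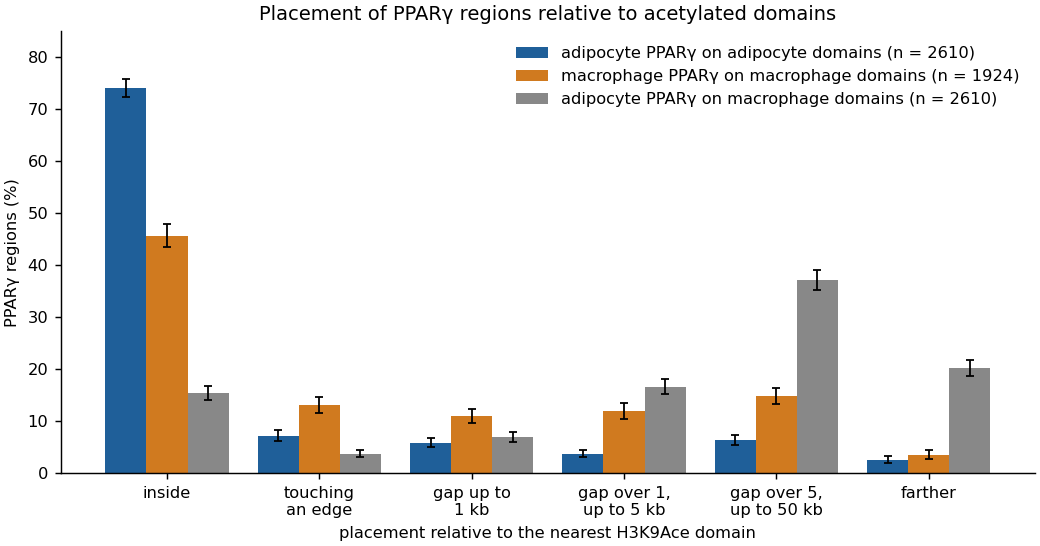
Share of PPARγ regions (y axis, percent) in 6 placement classes relative to the nearest H3K9Ace domain (x axis), for adipocyte regions on adipocyte domains, macrophage regions on macrophage domains, and adipocyte regions on macrophage domains; bars are shares and error bars 95% Wilson intervals. Adipocyte regions are inside their own domains in 74.1% of cases, macrophage regions in 45.7%, and adipocyte regions inside macrophage domains in 15.4%.

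The fold was higher in and near domains than far from them. The median fold was 6.47 inside (exact 95% interval of the median 6.39 to 6.56) and 6.38 at edges (6.11 to 6.72). It was 6.45 at gaps of up to 1 kb (6.28 to 6.74) and 6.09 from 1 to 5 kb (5.93 to 6.35). It was lower still farther out, 5.91 from 5 to 50 kb (5.79 to 6.10) and 5.99 beyond 50 kb (5.75 to 6.26). The interval of the inside class thus did not overlap those of the classes beyond 1 kb, but did overlap those at the edge and within 1 kb. A fold of 10 or more was found at 169 of the inside regions, 8.74%, and at 13 of the 487 regions outside domains, 2.67%. Sorted by fold, the share inside was 68.9% in the lowest quartile (65.3 to 72.4), then 72.2%, 73.3% and 82.0% in the highest quartile (78.8 to 84.7). The highest and lowest quartiles differed by 13.0 percentage points (95% Newcombe interval 8.38 to 17.6).

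The density of PPARγ climbed with each distance class from outside a domain, across its edge, to 8 kb inside. For this profile each region was reduced to its centre base, and centres were counted per Mb of sequence at each distance from the nearer edge. Outside, the density was 0.0457 centres per Mb beyond 50 kb (exact Poisson interval 0.0354 to 0.0580), 0.279 from 5 to 50 kb and 0.529 from 2 to 5 kb. It was 0.962 from 1 to 2 kb, 1.84 from 500 to 1000 bp and 2.96 from 250 to 500 bp. In the last 250 bp before the edge it was 5.10 (4.21 to 6.11). The first 250 bp within the edge held 9.39 (8.23 to 10.7), so the edge itself was no sharp step. From 250 to 500 bp inside the density was 14.9, from 500 to 1000 bp 22.7, and from 1000 to 2000 bp 29.4 (26.98 to 31.9). From 2 to 4 kb it was 31.6 (28.4 to 35.1) and from 4 to 8 kb 34.8 (29.5 to 40.8), with intervals that overlap each other. The few bases more than 8 kb from an edge held 31 centres, 26.4 per Mb (17.9 to 37.5), a lower value whose interval overlaps those of the classes from 1000 bp inward. Over all of the domains it came to 20.7 centres per Mb (19.8 to 21.6), 84.5 times the 0.245 outside (0.225 to 0.266).

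The inner bases of this profile come only from wide domains, so it was repeated within width classes, each of which includes its lower limit and not its upper one. In domains of at least 4000 bp the climb was steeper. There were 12 centres in the outer 250 bp, 4.16 per Mb (2.15 to 7.27), then 10.4 from 250 to 500 bp and 15.8 from 500 to 1000 bp. Farther in, the density was 26.9 from 1 to 2 kb, 31.6 from 2 to 4 kb and 34.8 from 4 to 8 kb, 8.36 times that of the outer 250 bp. Beyond 8 kb it was back at 26.4, near the level from 1 to 2 kb. In domains of 2000 to 4000 bp the density rose from 9.33 in the outer 250 bp (6.72 to 12.6) to 33.2 beyond 1000 bp (29.2 to 37.6). In those of 1000 to 2000 bp it rose from 15.0 (12.3 to 18.2) to 33.2 beyond 500 bp (28.1 to 39.0). Among these width classes, all from 1000 bp up, the outer 250 bp was thus bound less often in the wider ones. The intervals of their innermost distance classes overlapped. Domains under 1000 bp were not profiled by distance, and over their whole width they held only 9.39 regions per Mb (7.92 to 11.0).

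**Figure D2:**
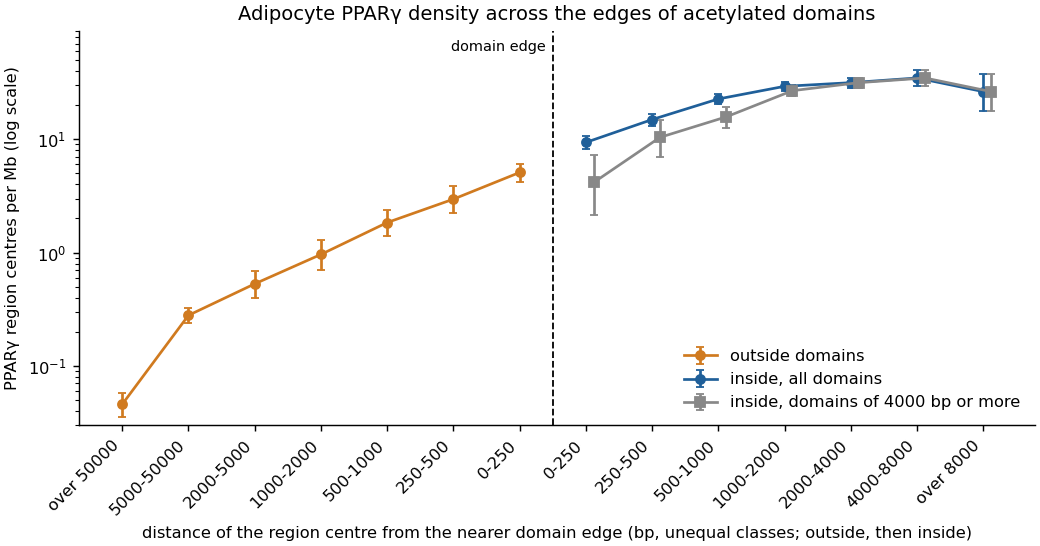
Adipocyte PPARγ region centres per Mb (y axis, log scale) by distance from the nearer domain edge (x axis, bp, in unequal classes; outside on the left, inside on the right), for all domains and for those of 4000 bp or more; points are densities and bars exact 95% Poisson intervals. Density climbs from 0.0457 per Mb beyond 50 kb to 9.39 just within the edge and 34.8 at 4 to 8 kb inside, and is 26.4 beyond 8 kb.

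Within domains, PPARγ regions were fewer at the margin and more frequent toward the centre than random placement would give. Position was measured as the distance to the nearer edge over the largest distance that the same region could have in the same domain, from 0 at an edge to 1 at the centre, and cut into 5 equal zones. Random placement was computed exactly, by averaging over all whole-bp positions each region could take in its own domain, and gave 20% in each zone, to the nearest whole percent. The outermost zone held 225 of the 1934 inside regions, 11.6% (10.3 to 13.1), 8.39 percentage points under random placement. The next zone held 18.2% (16.5 to 19.98) and the middle one 20.2% (18.4 to 22.01). Nearer the centre the shares were 24.0% (22.2 to 26.0) and, in the innermost zone, 26.0% (24.1 to 28.0), with 502 regions, 5.96 points above random placement. The median position was 0.60 (0.58 to 0.62), against 0.50 for random placement. With the combined adipocyte list, whose regions have a median width of 899 bp, the 2 differences shrank to -2.46 and 1.30 points, but placed by centre base that list gave -10.1 and 6.83.

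In distance the inside regions lay a median of 990.5 bp from the nearer edge, with quartiles at 451 and 1969 bp. Within 100 bp of an edge were 106 regions, 5.48% (4.55 to 6.59), where random placement would put 8.35%. Within 500 bp were 528, 27.3% (25.4 to 29.3), where it would put 36.7%. At 5000 bp the shares met, 94.5% observed and 95.01% by random placement. The files carry no strand, so both edges are alike, and of the inside regions 956 were nearer the edge with the lower coordinate, 49.4% (47.2 to 51.7).

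The tilt toward the centre varied with the width of the domain. In domains under 1000 bp, which held only 68 inside regions, no departure from random placement was detectable: 20.6% lay in the outermost zone (12.7 to 31.6) and 17.6% in the innermost (10.4 to 28.4). In domains of 1000 to 2000 bp these shares were 15.6% (12.1 to 19.8) and 23.9% (19.7 to 28.7). The tilt was largest among these classes at 2000 to 4000 bp, where the outermost zone held 11.6% (9.17 to 14.6) and the innermost 30.2% (26.5 to 34.2), with a median position of 0.67. At 4000 to 8000 bp the shares were 9.33% (7.13 to 12.1) and 26.5% (22.9 to 30.4). In domains of 8000 bp or more the outermost zone still held only 9.98% (7.54 to 13.1), but the other zones were nearly level, the innermost at 23.1% (19.4 to 27.2). Pooled over domains of at least 2000 bp, the outermost share minus that in narrower ones was -6.05 points (-10.2 to -2.41). The innermost share differed by 3.90 points (-0.895 to 8.32), an interval that includes 0.

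**Figure D3:**
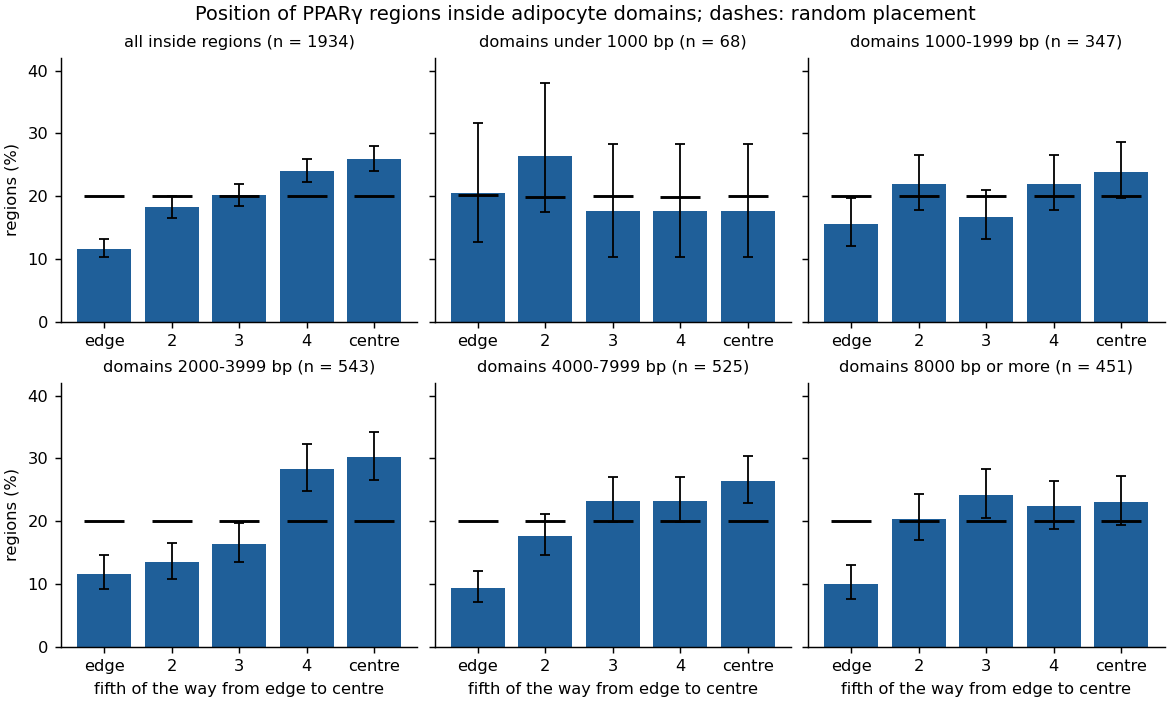
Share of inside PPARγ regions (y axis, percent) in each of 5 equal zones on the way from domain edge to centre (x axis), for all 1934 regions and by domain width; bars are shares, error bars 95% Wilson intervals, and dashes the share under random placement in the same domains. The outermost zone is under the dash in every width class from 1000 bp up, with 9.33% in domains of 4000 to 8000 bp, and the innermost zone is highest in domains of 2000 to 4000 bp, at 30.2%.

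No relation between position within a domain and the fold was detectable over all widths. The outermost zone held 11.0% of the inside regions of the lowest fold quartile (8.47 to 14.3) and 12.2% of those of the highest (9.70 to 15.3). The innermost zone held 26.5% of either (22.6 to 30.7 and 22.9 to 30.4). Median fold by zone was 6.70 at the margin (6.34 to 7.07) and 6.42 at the centre (6.25 to 6.61), with overlapping intervals. The sign of this difference varied with width. The margin had the lower median in domains under 1000 bp, 5.75 against 6.51, and in those of 1000 to 2000 bp, 6.02 against 6.23. In domains of 2000 to 4000 bp the margin was higher, 7.09 (6.62 to 7.54). Its interval lay above those of the third zone (6.14 to 6.59) and the fourth (6.16 to 6.61), and overlapped that of the innermost (6.18 to 6.71). The margin was also higher than the centre at 4000 to 8000 bp, 6.86 against 6.65, and at 8000 bp or more, 6.97 against 6.41, with overlapping intervals in both classes. Regions that overlapped a macrophage PPARγ region were placed much like the rest: 162 of 216 were inside, 75% (68.8 to 80.3), against 74.0% of the 2394 others (72.2 to 75.7). That difference was 0.982 points (-5.43 to 6.58). The innermost zone held 22.2% of the shared inside regions and 26.3% of the others, a difference of -4.08 points (-10.2 to 3.21).

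The pattern was spread over the chromosomes. The share inside ran from 61.2% on chromosome 3 (52.1 to 69.6) to 83.1% on chromosome 19 (75.7 to 88.6). The outermost zone held under 20% on 18 of 19 autosomes, the exception being chromosome 16 with 20.8% of 53 inside regions. The innermost zone held over 20% on 18 of 19, the exception being chromosome 12 with 19.0% of 42. Chromosome 6, which holds 375 of the PPARγ regions, had 36.1 regions per Mb of domain (32.2 to 40.3), against 20.1 on the other autosomes (19.2 to 21.0). It had 78.4% inside and 73.4% elsewhere, a difference of 5.02 points (0.233 to 9.32), and 11.9% against 11.6% in the outermost zone.

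The 189 regions at an edge lay on domains with a median width of 1050 bp, close to the 1000 bp of all domains and under the 3050 bp of domains holding 1 region, and 77 of these domains were under 1000 bp. A median of 58.3% of such a region lay within the domain (quartiles 33.9 and 84.5%), and the centre did in 112 cases, 59.3% (52.1 to 66.0). None covered a whole domain, and 6 bridged neighbouring domains by touching both. Domains under 1000 bp were 43.9% of all domains, so by number of domains edge contacts were not concentrated on them. These domains held only 6.83% of the overlapping regions and 15.6% of the acetylated bases, however. Against either of those shares, 77 of 189 edge contacts were many. Among overlapping regions, the share inside rose with domain width. A narrow domain leaves a region less room to lie inside, and the share under random placement was not computed here. Of the regions overlapping a domain under 1000 bp only 46.9% were inside (39.0 to 55.0), against 81.6% at 1000 to 2000 bp, 95.4% at 2000 to 4000 bp and 98.5% at 4000 to 8000 bp. In domains of 8000 bp or more all 451 were inside.

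Most outside regions up to 1 kb from a domain had one that close on 1 side only. Of the 154 regions with a domain up to 1 kb away, 38 had one that close on both sides, 24.7% (18.5 to 32.0). The share of sequence with a domain that close on both sides was not computed. Gaps of at most 250 bp between neighbouring domains numbered 5827 and held 10 PPARγ centres, 9.98 per Mb (4.78 to 18.3). Gaps of over 250 to 500 bp held 4.98 per Mb (2.39 to 9.15) and those of over 500 to 1000 bp 4.76 (2.99 to 7.21). These short breaks were thus bound about as often as the outer 250 bp of domains or less, and less often than domain interiors. They were bound more often than all sequence outside domains, at 0.245 centres per Mb (0.225 to 0.266), but all their bases lie within 500 bp of an edge. Up to 250 bp outside any domain the density was 5.10 (4.21 to 6.11), and from 250 to 500 bp 2.96 (2.22 to 3.86). The interval of each of these gap classes overlapped that of the first 250 bp outside. The domain nearest to an outside region had a median width of 925 to 1050 bp in the 4 gap classes, close to the 1000 bp of all domains.

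Few domains held PPARγ, and wide ones did so more often. At least 1 region lay in 1937 of 50496 domains, 3.84% (3.67 to 4.01). The share rose with width, from 0.641% under 1000 bp (0.544 to 0.755) to 3.12% at 1000 to 2000 bp, 6.08% at 2000 to 4000 bp and 10.7% at 4000 to 8000 bp. Of the 1294 domains of 8000 bp or more, 346 held PPARγ, 26.7% (24.4 to 29.2). Wider domains also held more bases. Per Mb of domain there were 9.39 regions in domains under 1000 bp (7.92 to 11.0), then 23.6, 22.4 and 22.3 in the next 3 classes, and 28.3 in the widest (25.7 to 31.0). Domains under 1000 bp thus had a density below, and the widest a density above, an almost level middle. Domains of 4000 bp or more held 46.3% of the overlapping regions (44.2 to 48.5) on 40.4% of the acetylated bases, 5.99 points more. This excess depended on the lists: with the combined adipocyte list it turned to -1.68 points, and with domains under 1000 bp left out it was 1.93 (-0.266 to 4.14).

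Domains that held PPARγ were also less often acetylated in macrophages than empty domains of like width. At 2000 to 4000 bp, 166 of 548 holding domains overlapped a macrophage domain, 30.3%, against 63.4% of the 8459 empty ones, a difference of -33.1 points (-37.0 to -29.0). At 4000 to 8000 bp the shares were 51.5% and 78.9%, a difference of -27.5 points (-32.1 to -22.8), and at 8000 bp or more 65.6% and 85.5%, -19.9 points (-25.5 to -14.6). The gap was smaller at 1000 to 2000 bp, -7.77 points (-11.1 to -3.84), and its interval included 0 under 1000 bp, -1.70 (-5.79 to 4.44). Without regard to width the sign was the opposite, 37.4% of holding and 31.4% of empty domains, a difference of 6.01 points (3.84 to 8.22). Holding domains were wider, with a median of 3050 bp for those with 1 region against 1000 bp for empty ones. No difference by this property was detectable in where PPARγ lay within a domain, over all widths and without matching the domains for width. The innermost zone held 24.2% of inside regions in domains that overlapped a macrophage domain and 27.2% in the others, a difference of -3.00 points (-6.90 to 0.985).

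**Figure D4:**
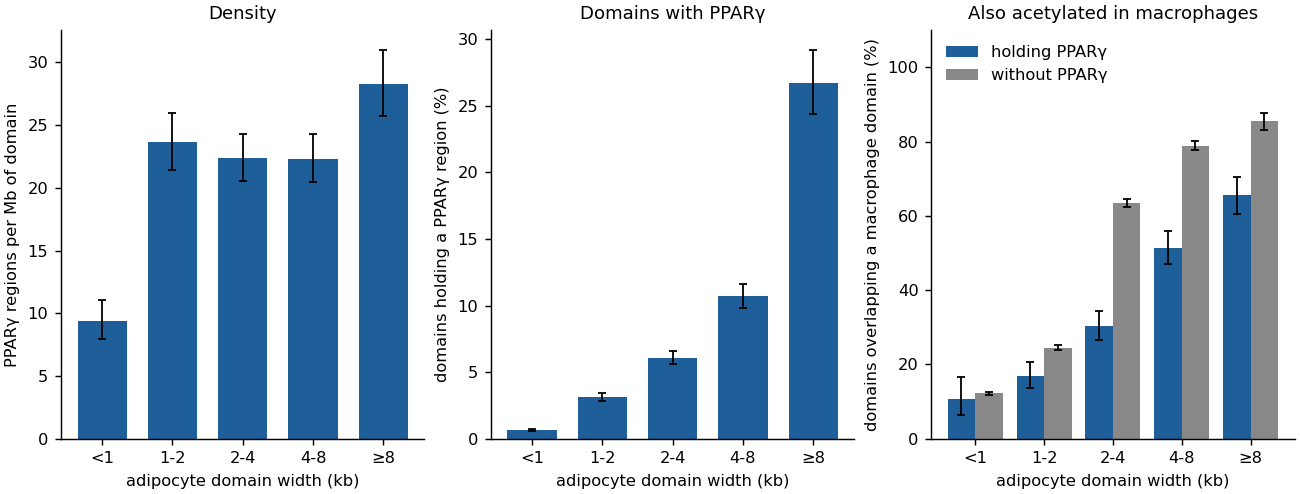
Adipocyte domains in 5 width classes (x axis, kb): PPARγ regions per Mb of domain, with exact 95% Poisson intervals (left), share of domains holding a PPARγ region (middle) and share overlapping a macrophage H3K9Ace domain for domains with and without PPARγ (right), both in percent with 95% Wilson intervals. Density runs from 9.39 to 28.3 per Mb, and from 1 kb up the domains that hold PPARγ overlap a macrophage domain less often than empty ones.

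Several PPARγ regions in 1 domain were uncommon. Of the 1937 holding domains, 1782 had 1 region, 130 had 2, 20 had 3, 4 had 4 and 1 had 5. Domains with 2 or more made up 8.002% of those that held any (6.88 to 9.30), 2.11% under 1000 bp and 23.7% at 8000 bp or more (19.5 to 28.4). Centres of neighbouring regions in a domain lay a median of 1260 bp apart (quartiles 684 and 3391 bp), and 74 of 186 such pairs were under 1000 bp apart. Regions of these domains had a median fold of 6.63, and those alone in a domain 6.44.

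The domain with 5 regions lay on chromosome 6 from 119369751 to 119385550 and was 15800 bp wide. Its regions spread over its length: the strongest, with a fold of 12.01 and a height of 37, began at 119375362, and the most central, with a fold of 9.66 and a position of 0.96, began at 119377193. The 2 outermost, 1256 and 912 bp from an edge, had folds of 6.42 and 5.07. The widest of the 4-region domains, also on chromosome 6, ran from 90661001 to 90703700, 42700 bp, and all 4 of its folds were low, from 5.52 to 6.22. A domain on chromosome 7 from 25085051 to 25108100 held a region of fold 13.53 starting at 25100551 and 3 others within 6 kb on its lower side, with folds of 8.98, 5.27 and 5.35. On chromosome 17, the domain from 55699401 to 55710150 did not overlap any macrophage domain. Its 4 regions lined up from position 0.48 to the very centre, 0.96. The other domain there, from 30759801 to 30768200, held its 4 regions toward its upper edge, the strongest (fold 14.96) 2371 bp from that edge and the last (fold 10.75) only 237 bp from it. All 4 also overlapped a macrophage PPARγ region.

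**Figure D5:**
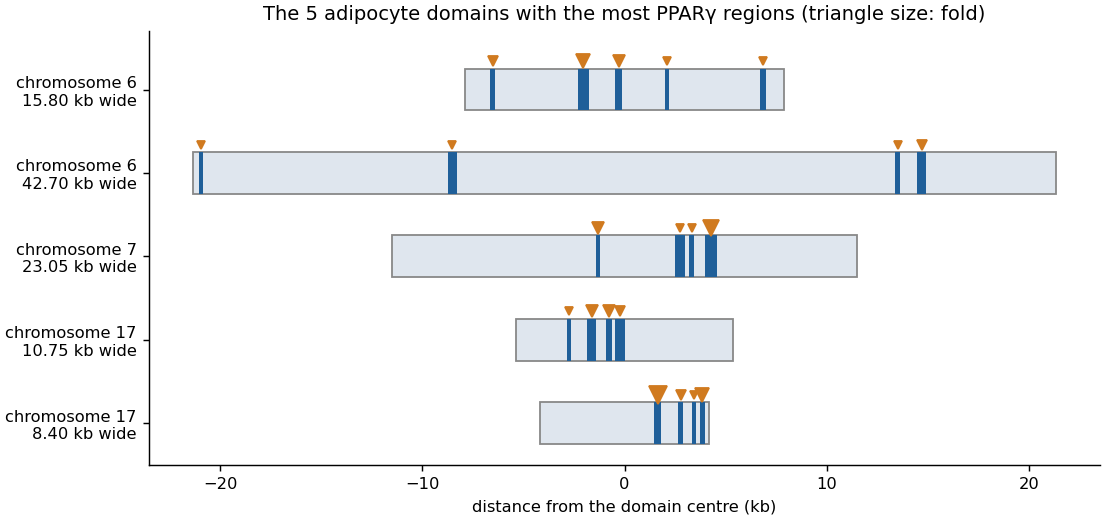
The 5 domains with the most PPARγ regions, drawn to scale as distance from the domain centre (x axis, kb); blue blocks are PPARγ regions and triangles above them grow with the authors' fold. The 15800-bp domain on chromosome 6 has regions along its length, whereas the 8400-bp domain on chromosome 17 has all 4 on 1 side of its centre.

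The 6 inside regions with the highest fold lay at positions from near an edge to near the centre. Of the 6 inside regions with the highest fold, 3 lay on chromosome 6. The top one, 134567494 to 134567847 (fold 18.55), was only 94 bp from the edge of its domain, which ran from 134567401 to 134573350, a position of 0.03. The region at 140591970 to 140592207 (18.46) was 2443 bp from the edge of a 12700-bp domain, position 0.39. The region at 5459714 to 5460166 (18.42, the highest peak, 46) shared a 5600-bp domain with 2 others and had a position of 0.73. On chromosome 19, the region at 15971733 to 15972066 (18.25) had a position of 0.45, and on chromosome 2 the region at 163163182 to 163163526 (17.89) had 0.26. The sixth, on chromosome 17 at 33386067 to 33386744 (17.09), was near the very centre of its 6550-bp domain at 0.97, and was the only one of the 6 that was shared with macrophage PPARγ.

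The highest folds at edges and far from domains were lower than those inside, but these groups were smaller, with 189 and 68 regions against 1934. A fold of 10 or more was found at 6.88% of edge regions and 2.94% of those beyond 50 kb, against 8.74% inside. The edge regions with the highest fold lay on chromosome 6 at 121084097 to 121084367 (13.03, with 75.2% of its width in a domain of 1150 bp), on chromosome 13 at 98396128 to 98396416 (12.77, 40.3%) and on chromosome 3 at 63403117 to 63403619 (12.65, 73.5%). Among regions farther than 50 kb from any domain the highest was on chromosome 14 at 103222575 to 103222765, with a fold of 11.83 and 183985 bp to the nearest domain, and it overlapped a macrophage PPARγ region. The next lay on chromosome 19 at 18978870 to 18979164 (11.21, 195470 bp away) and on chromosome 13 at 71256550 to 71256804 (9.44, 149400 bp away). These fold values of single regions have no replicate.

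In macrophages a smaller share of PPARγ regions lay inside domains. Of 1924 autosomal macrophage PPARγ regions, 879 were inside a macrophage domain, 45.7% (43.5 to 47.9), 28.4 percentage points below the adipocyte share (25.6 to 31.2). Inside or touching were 58.7%, on 2.13% of the span, against 81.3% on 4.02% in adipocytes. Domains held 19.7 centres per Mb in macrophages (18.5 to 21.0) and 20.7 in adipocytes. The density inside was 84.5 times that outside in adipocytes and 51.8 times in macrophages. Edge contact was more frequent, 13.0%, a difference of -5.80 points for adipocytes minus macrophages (-7.64 to -4.02), and so were gaps of up to 1 kb, 10.97%, a difference of -5.07 (-6.76 to -3.43). Macrophage domains covered less, 52.3 Mb, with 10% wider than 2700 bp against 4250 bp in adipocytes, and macrophage PPARγ regions were wider, with a median of 318 bp. The chromatin also came from whole-cell lysates in macrophages and nuclear lysates in adipocytes, and macrophage PPARγ had 2 sequencing runs against 1. The part of these differences in the result was not tested. The outermost zone held 15.4% of inside regions there, 3.72 points more than in adipocytes (1.03 to 6.60 more). Within domains of 2000 to 4000 bp no such difference was detectable: it was -0.978 points for adipocytes minus macrophages (-5.79 to 3.41), and 1.82 (-4.62 to 8.004) for the innermost zone, which held 28.4% in macrophages. For the outermost zone it was -3.13 (-8.71 to 2.47) at 1000 to 2000 bp and -2.29 (-9.32 to 2.96) at 4000 to 8000 bp. Among overlapping regions, the share inside was still higher in adipocytes at 1000 to 2000 bp, by 8.56 points (3.10 to 13.9), and at 4000 to 8000 bp, by 3.65 (0.650 to 8.80). At 2000 to 4000 bp it was not detectably so, 1.49 (-1.44 to 4.92). With the combined adipocyte list the difference in the share of all regions inside vanished (-0.0634 points, -2.46 to 2.32), and placed by centre base it was 8.81 points (6.43 to 11.2), so its size rested on the adipocyte list used.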

How the data were processed

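Per the labels' protocols, the authors aligned 36-bp reads to the mouse mm8 build with ELAND, with up to 2 mismatches and a unique best match required; the series text says input-bias areas were subtracted. Macrophage PPARγ combined 2 sequencing runs. Peak-caller settings and the control: not given in the sources used here. The final adipocyte PPARγ list carries, per the file headers, a fold (ratio) per region over an unnamed control, a peak height (signal in whole units) and a false discovery rate, read as percent, of 0.34 in every row. The deposited H3K9Ace lists and the combined list of 3 adipocyte datasets were used for positions alone. Starts of H3K9Ace domains are printed 1-based, and PPARγ positions as deposited.

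With Python 3.11.15, numpy 2.4.6, scipy 1.17.1 and pandas 2.3.3, regions were placed against domains by position, and a region was assigned to the domain it overlapped most. Shares have Wilson, differences Newcombe, densities exact Poisson and medians exact order-statistic 95% intervals. With 1 library a group, no test was made. The code was tested on simulated data. Named were the 5 domains with the most regions (ties: the wider first), the 6 inside regions, 3 edge regions and 3 regions beyond 50 kb with the highest fold, plus the chromosomes at the ends of a range. The members, width classes and lists were chosen with earlier results of these data known. The comparison of domains holding PPARγ with empty ones and the density profile were added after seeing the data. No mm8 sequence or gene annotation was used here.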

Additional observations from a re-analysis of the deposited data

How the results depend on the processing

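Of 84 recomputed values, 43 stayed within the counting interval of the reported value, 39 moved beyond it and 2 changed sign. The outermost deficit and the innermost excess kept their direction under all 11 alternatives each (-10.1 to -2.46 and 1.30 to 7.22 points). The causes were not tested. With the combined list, 45.6% of regions were inside, 67.4% inside or touching, 14.04% of domains held PPARγ, and 11.9% of those held 2 or more. The innermost difference was then 1.30, the outermost -2.46, the excess in domains of 4000 bp or more turned to -1.68, the adipocyte-minus-macrophage difference turned to -0.0634, and the holding-minus-empty difference at 2000 to 4000 bp was -27.8 points. That list placed by centre base, an alternative chosen after seeing the data, gave 62.3% inside, -10.1 for the outermost zone and 1.07 for wide domains. It also gave 12.9% of domains with at least 1 PPARγ region, 12.2% of those with 2 or more, and 8.81 against macrophages. In the final list, centres in place of whole regions gave 78.4% inside, -10.1 for the outermost zone and 24.9 points against macrophages. Regions at or above the median fold gave 77.6% inside, 84.8% inside or touching, 8.88 for wide domains, 2.08% of domains with PPARγ and 4.96% of those with 2 or more. Joining domains over 500 bp gave 76.2% inside, 2.90 for wide domains, 4.78% and 9.68%, and over 1000 bp 77.3%, 1.24, 5.58% and 11.2%. Trimming domains by 100 bp gave 70.2% inside, 79.3% inside or touching and -6.61 for the outermost zone. Without domains under 1000 bp these were 71.5% and 75.8%, with 1.93 for wide domains and 6.34% of domains holding PPARγ. Keeping 1 region a domain gave 2.18 for wide domains. Without chromosome 6, 3.63% of domains held PPARγ and 6.75% of those 2 or more. No inside-or-touching value exists for placement by centre base. All alternatives for the comparisons with macrophage data were chosen after seeing the data. Depth is unknown, so absence from a list shows no absence of binding. No paired analysis was possible because each group has 1 library.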

Other observations

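The combined adipocyte list, which holds 12165 autosomal regions without fold or height, gave a profile across domain edges that levelled off sooner than that of the final list. Its centres numbered 40.2 per Mb in the outer 250 bp of domains (exact Poisson interval 37.8 to 42.8) and 70.9 from 250 to 500 bp. From 500 to 1000 bp the density was 98.6 (94.2 to 103.1), and it stayed at 93.3, 96.2 and 94.9 in the next 3 classes out to 8000 bp. More than 8000 bp inside it was 81.7 (66.2 to 99.8). Beyond 50 kb from any domain it was 0.807 (0.762 to 0.854), where 1183 centres lay. Regions of this list were wider, with a median of 899 bp against 260 bp in the final list. The part of that width in the shape of the profile was not tested.

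In macrophages the profile of PPARγ across the edges of macrophage domains climbed inward over the first 2000 bp, from 7.54 centres per Mb in the last 250 bp outside (6.32 to 8.93) to 12.5 in the first 250 bp inside (10.95 to 14.2) and 32.7 from 1000 to 2000 bp (28.5 to 37.4). From 2000 to 4000 bp it was lower, 21.4 (14.6 to 30.2), with 32 centres.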
